A study of Rattus norvegicus with 8 samples.

Results

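The sodium-potassium pump and the channels of the muscle fibre surface were followed through 6 genes in the extraocular (eye-moving) muscles of rats. The genes were the pump's beta subunits Atp1b1 and Atp1b2, its FXYD regulators Fxyd1 and Fxyd6, the muscle sodium channel Scn4a and the muscle chloride channel Clcn1. They were chosen by gene symbol, and all 6 were found, on 8 of the 31099 probe sets of the Affymetrix arrays (a probe set is a group of short probes for 1 transcript). Each of 8 adult Sprague-Dawley rats, with a labelled initial body weight of 200 ± 40 g, gave 1 array of total RNA. The 4 hyperthyroid rats (arrays 1, 2, 3 and 5) had been injected intraperitoneally with 25 µg of the thyroid hormone T3 per 100 g of body weight on alternate days for 6 weeks, and their muscles were removed 24 hours after the last dose. The 4 control rats (arrays 7, 8, 9 and 11) are labelled as untreated. The study asked how a lasting excess of thyroid hormone alters gene expression in these muscles.

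The pump moves sodium out of the fibre and potassium into it, using ATP. It is built from a catalytic alpha subunit, a glycosylated beta subunit that brings the enzyme to the membrane, and a small FXYD protein that tunes its affinity for ions. The action potential of a muscle fibre starts with sodium entry through the channel encoded by Scn4a, the chloride channel encoded by Clcn1 steadies the resting membrane, and the pump restores the gradients. Thyroid hormone is known to raise the number of pumps in limb muscle.

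The array labelled hyperthyroid 5 stood apart in marker genes, which went against its tissue label. Myh13, the myosin typical of eye muscle, had a signal of 4.17 on it and of 5430 to 9340 on the other 7 arrays. The myelin gene Mbp was at 61.4 on it and the glial gene Gfap at 13.4, and hyperthyroid 2 was also low in both, at 997 and 39.5, and elsewhere they were no lower than 4768 and 708. Summed slow fibre markers (6 genes) came to 48122 on hyperthyroid 5 and to between 7984 and 16769 elsewhere, while the summed general fibre markers (7 genes) were at 182059, between the lowest and highest of the rest (141926 to 194339). Each member is therefore given with and without hyperthyroid 5. Median signals were 57.6 to 58.5 on hyperthyroid 1, 2 and 3, above the 47.8 to 54.8 of the controls, and 49.2 on hyperthyroid 5. Over all probe sets, hyperthyroid 5 had a mean correlation of log2 signal with the other arrays of 0.822. This lay within the 0.808 to 0.835 of the rest.

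Fxyd6 was lower on every hyperthyroid array than on any control array, and it was the member with the clearest difference between the groups. Fxyd1 was lower on hyperthyroid 1, 2 and 3 and at the control level on hyperthyroid 5. Both probe sets of Atp1b1 were low on hyperthyroid 5 and, on the other hyperthyroid arrays, near or above the controls. Clcn1 and the brighter probe set of Atp1b2 overlapped between the groups, and Scn4a was too dim to be measured.

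Of the 8 member probe sets, 6 (5 genes) passed the filter on dim probe sets, which kept those whose mean log2 signal corresponded to a signal above about 28.2. In the limma fit of all 8 arrays, 0 of the 6 passed an adjusted p of 0.05, beside 0% of all 18625 probe sets tested. At an unadjusted p under 0.05 it counted 2 of the 6, Fxyd1 and Fxyd6, both lower, where 5.3% of all probe sets were lower, 6.25% higher and 11.5% either. Without hyperthyroid 5, 1 of the 6 passed the adjusted threshold, Fxyd6, which was lower, where 0.156% of all probe sets passed and 0.102% did so lower. The unadjusted count was then 3 of 6, with Fxyd1 and Fxyd6 lower and 1 Atp1b1 probe set higher, against 15.2% of all probe sets (7.66% lower, 7.59% higher).

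**Figure D1:**
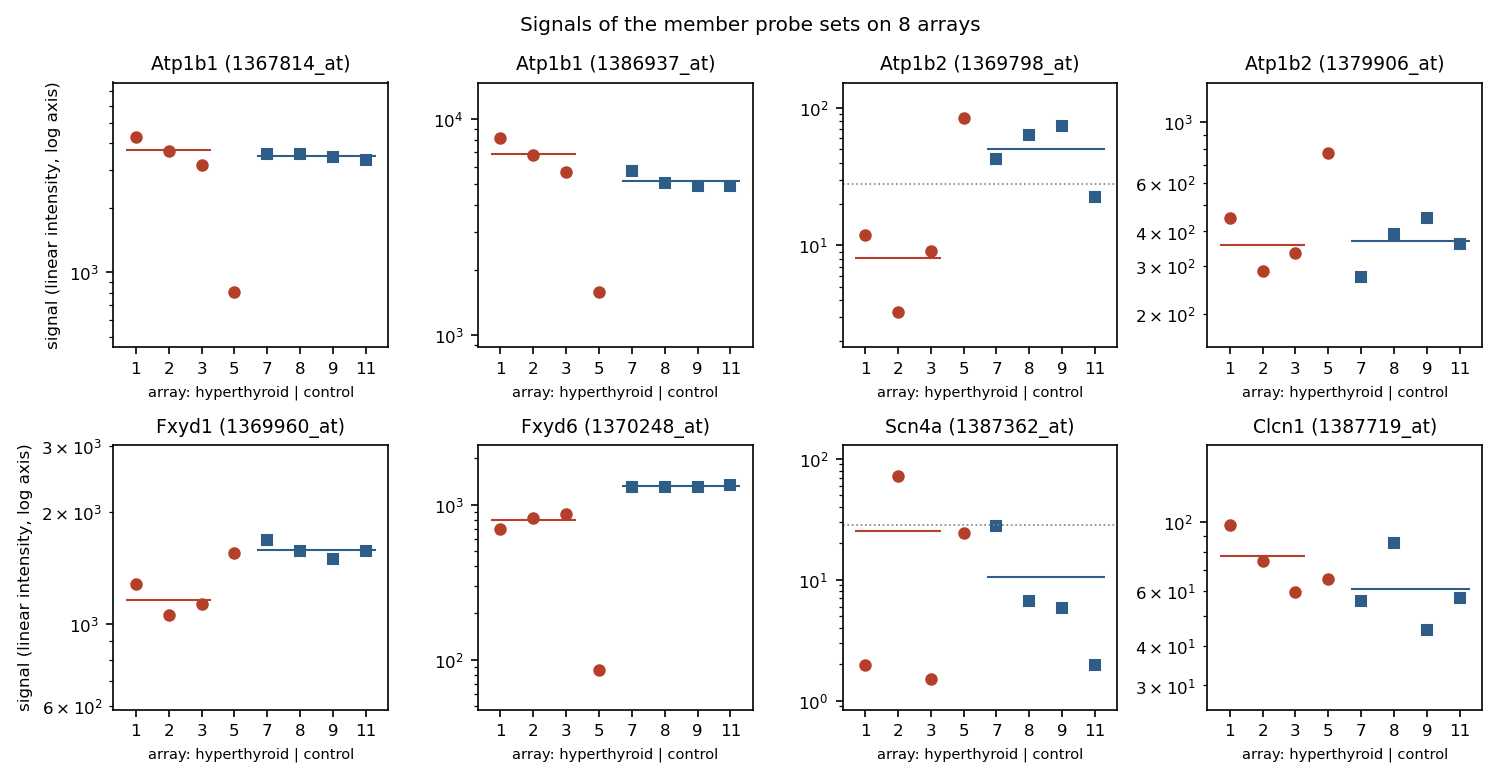
Signal of each member probe set (linear intensity on a log axis) on each array, with hyperthyroid arrays as red circles, control arrays as blue squares, the linear means of hyperthyroid 1, 2 and 3 and of the controls as lines, and the filter level as a dotted line where a probe set did not pass it. Fxyd6 stands at 85.6 to 865 on the hyperthyroid arrays and at 1291 to 1346 on the controls, and the low point of both Atp1b1 probe sets is hyperthyroid 5.

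Atp1b1 encodes the beta 1 subunit, the most widespread beta form of the pump. Its probe set 1367814_at had signals of 4273, 3700.4, 3154 and 805 on hyperthyroid 1, 2, 3 and 5. On control 7, 8, 9 and 11 it stood at 3555, 3563, 3459.6 and 3349. The controls thus lay close together, the first 3 hyperthyroid arrays spread around them, and hyperthyroid 5 had 23.1% of the control mean. The log2 difference was -0.47 ± 0.42 (SE) on all 8 arrays (limma, adjusted p = 0.679). Without hyperthyroid 5 it was 0.08 ± 0.12 (limma, adjusted p = 0.783), with a 95% interval from -0.18 to 0.34. The 3′/5′ Gapdh ratio (signal at the 3′ end of the Gapdh transcript over that at the 5′ end, rising as RNA gets shorter) moved these values when it was a covariate, to -1.24 on all 8 arrays (limma, adjusted p = 0.0904) and to -0.21 without hyperthyroid 5 (limma, adjusted p = 0.986).

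The second probe set of Atp1b1, 1386937_at, read 8190.2, 6839, 5664 and 1587 on hyperthyroid 1, 2, 3 and 5. Its control signals were 5777, 5077, 4892 and 4875. Hyperthyroid 1 and 2 were above every control, hyperthyroid 3 was inside the control range just under its top, and hyperthyroid 5 was far below. The log2 difference was -0.12 ± 0.41 on all 8 arrays (limma, adjusted p = 0.926). Without hyperthyroid 5 it was 0.41 ± 0.13, with a 95% interval from 0.11 to 0.70, and it did not pass after adjustment (limma, adjusted p = 0.195). That difference was 0.23 with each array centred on its median and 0.025 with the Gapdh covariate, which gave -0.89 on all 8 arrays (limma, adjusted p = 0.403, 0.996 and 0.145). With the covariate, leaving out hyperthyroid 5 took 1386937_at from -0.89 to 0.025 and 1367814_at from -1.24 to -0.21. Without the covariate, the direction of Atp1b1 on all 8 arrays rested on hyperthyroid 5. Across arrays the log2 signals of its probe sets had a Pearson correlation of 0.97 over 8 arrays and of 0.80 over 7, a description that shares the same RNA and labelling.

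Atp1b2 encodes the beta 2 subunit, also known as the adhesion molecule on glia and abundant in fast glycolytic fibres. Its brighter probe set, 1379906_at, read 447, 287, 333.5 and 773 on hyperthyroid 1, 2, 3 and 5. Controls 7, 8, 9 and 11 gave 274, 393, 446 and 359.7. Hyperthyroid 5 was the highest of all arrays at 210.0% of the control mean, and the other 3 hyperthyroid arrays mixed with the controls. The log2 difference was 0.23 ± 0.28 on all 8 arrays (limma, adjusted p = 0.765) and -0.05 ± 0.21 without hyperthyroid 5 (limma, adjusted p = 0.930), where the 95% interval ran from -0.50 to 0.40. With the Gapdh covariate these were 0.62 (limma, adjusted p = 0.336) and 0.036 (limma, adjusted p = 0.998), and with median centring 0.12 and -0.23 (limma, adjusted p = 0.908 and 0.644).

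The dim probe set of Atp1b2, 1369798_at, did not pass the filter. It read 11.9, 3.27, 9.07 and 85.1 on the hyperthyroid arrays and 42.8, 63.2, 74.0 and 22.5 on the controls, with 4 of the 8 values above the filter level. In the fit with no filter its log2 difference without hyperthyroid 5 was -2.70 ± 0.88 (limma, adjusted p = 0.222). Both probe sets were highest on hyperthyroid 5, and they differed on hyperthyroid 1, 2 and 3, which were all below the controls on the dim one.

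Fxyd1 encodes phospholemman, the FXYD protein that inhibits the pump in heart and skeletal muscle until it is phosphorylated. Its signals were 1278, 1058, 1127 and 1548 on hyperthyroid 1, 2, 3 and 5. Controls 7, 8, 9 and 11 gave 1678, 1571, 1488 and 1565. Hyperthyroid 1, 2 and 3 were below every control, with a mean of 73.3% of the control mean, and hyperthyroid 5 was inside the control range at 98.3%. The groups were 1575 ± 78.1 in control (SD, n = 4) and 1155 ± 113 on these 3 arrays (SD, n = 3). The log2 difference was -0.34 ± 0.14 on all 8 arrays (limma, adjusted p = 0.392). Without hyperthyroid 5 it was -0.45 ± 0.12, with a 95% interval from -0.71 to -0.20, and it missed the threshold after adjustment (limma, adjusted p = 0.126). With each array centred on its median it passed (log2 difference -0.63, limma, adjusted p = 0.0310), a scaling that moved the median difference of all probe sets from 0.04 to -0.14. With the Gapdh covariate it was -0.21 on all 8 arrays (limma, adjusted p = 0.563) and -0.48 without hyperthyroid 5 (limma, adjusted p = 0.986).

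Fxyd6 encodes phosphohippolin, a FXYD protein best known from brain and inner ear that also associates with the pump. Its signals were 699.5, 815, 865 and 85.6 on hyperthyroid 1, 2, 3 and 5. On control 7, 8, 9 and 11 it read 1304, 1291, 1294 and 1346. The groups did not overlap, which was so for 3.23% of all probe sets tested in this direction, and the 4 controls had a coefficient of variation of 1.95%. Hyperthyroid 1, 2 and 3 averaged 793 ± 84.9 (SD, n = 3), or 60.6% of the control mean of 1309 ± 25.6 (SD, n = 4), and hyperthyroid 5 had 6.54% of it.

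On all 8 arrays the log2 difference of Fxyd6 was -1.53 ± 0.60, with a wide 95% interval from -2.83 to -0.22 (limma, adjusted p = 0.369). With the Gapdh covariate it was -2.53 (limma, adjusted p = 0.0846). The standard deviation of the log2 signal was 1.61 over the 4 hyperthyroid arrays and 0.16 without hyperthyroid 5. Without that array Fxyd6 fell by 0.73 ± 0.12 on the log2 scale, with a 95% interval from -0.99 to -0.46 (limma, adjusted p = 0.0442), 24th by p among the 18625 probe sets. Without hyperthyroid 5 the groups of Fxyd1 did not overlap either, and 6.51% of all probe sets showed this in the same direction.

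The call of Fxyd6 was close to the threshold. When a further array was left out, it was lost without hyperthyroid 1 or 2 or without control 7, 8, 9 or 11, and kept without hyperthyroid 3, at adjusted p from 0.0305 to 0.195 in limma, while the log2 difference stayed between -0.79 and -0.64. It was also lost after quantile normalization (-0.67, adjusted p = 0.0543 in limma), with 1 probe set per gene (adjusted p = 0.0508) and without a mean-variance trend (0.315). With the Gapdh covariate it was lost too (-0.57 ± 0.22, adjusted p = 0.986 in limma). Without hyperthyroid 5 the Gapdh ratio was higher on every hyperthyroid array than on any control. That fit can therefore hardly tell the ratio and the group apart.

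**Figure D2:**
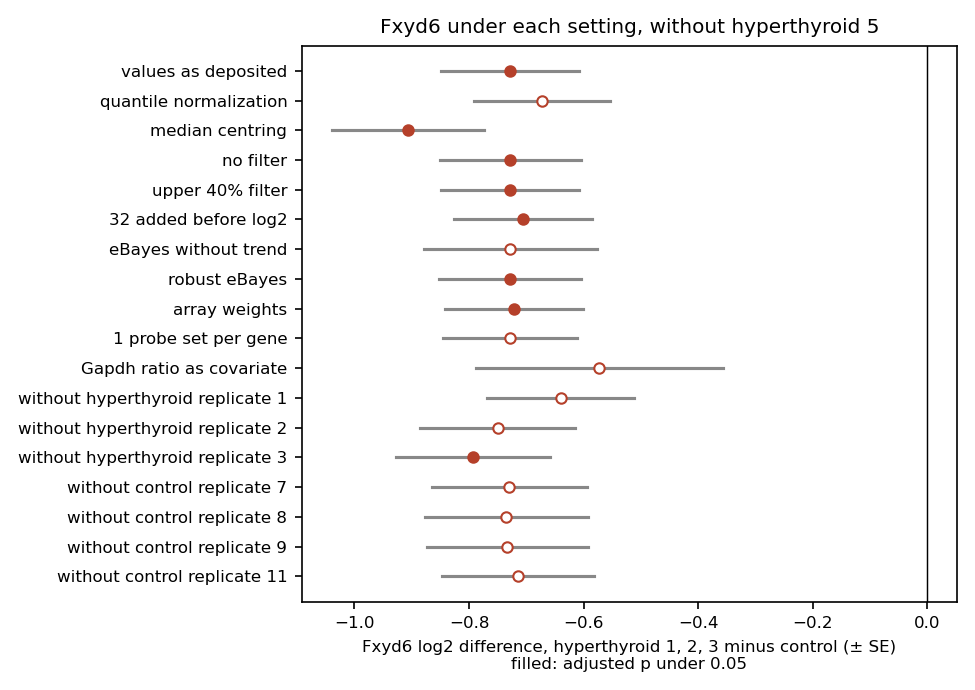
Log2 difference of Fxyd6 between hyperthyroid 1, 2 and 3 and the 4 controls under each setting, with bars of 1 SE and filled points where the adjusted p from limma was under 0.05. All points lie below 0, between -0.91 and -0.57, and 10 of the 17 alternatives are open.

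Measures of RNA quality and of other cell types varied on the same arrays. The 3′/5′ Gapdh ratio was 3.91, 4.40 and 2.18 on hyperthyroid 1, 2 and 3, above the 1.67 to 1.97 of the controls, and 1.44 on hyperthyroid 5, below them. Summed epithelial markers (7 of 7 genes measured, 4 above the filter) came to between 135 and 405 on hyperthyroid 1, 2 and 3 and to 58.6 on hyperthyroid 5, against 409 to 1016 on controls. Summed fibroblast markers (7 of 7) were at 12819 to 21494 on hyperthyroid 1, 2 and 3 and at 41915 on hyperthyroid 5, against 19275 to 36703. None of the marker values was listed at 0, though Epcam, a defining epithelial gene, stood at 1.40 on hyperthyroid 5. Their part in the lower Fxyd6 and Fxyd1 signals was not tested. In whole muscle, fewer cells of a type and less RNA per cell cannot be told apart.

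Nerve and glial markers were read because Fxyd6 is a brain gene. Without hyperthyroid 5, 11 of the 12 glial genes and 5 of the 6 neuron genes tested had a lower mean log2 signal on the hyperthyroid arrays, and on all 8 arrays 12 of 12 and 6 of 6 did. Hyperthyroid 1, with the lowest Fxyd6 of the 3 arrays kept, had summed neuron markers (8 of 8 genes measured) of 1608 and myelin and glia markers (12 of 14) of 27729, the highest of the 3. The controls ranged from 587 to 1312 and from 16518 to 31459. On hyperthyroid 2 the glial sum was 9230, below every control, while its Fxyd6 signal of 815 lay between those of hyperthyroid 1 and 3. On hyperthyroid 5 both sums were lowest, at 127 and 4770. The part of these cells in the Fxyd6 result was not tested.

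**Figure D3:**
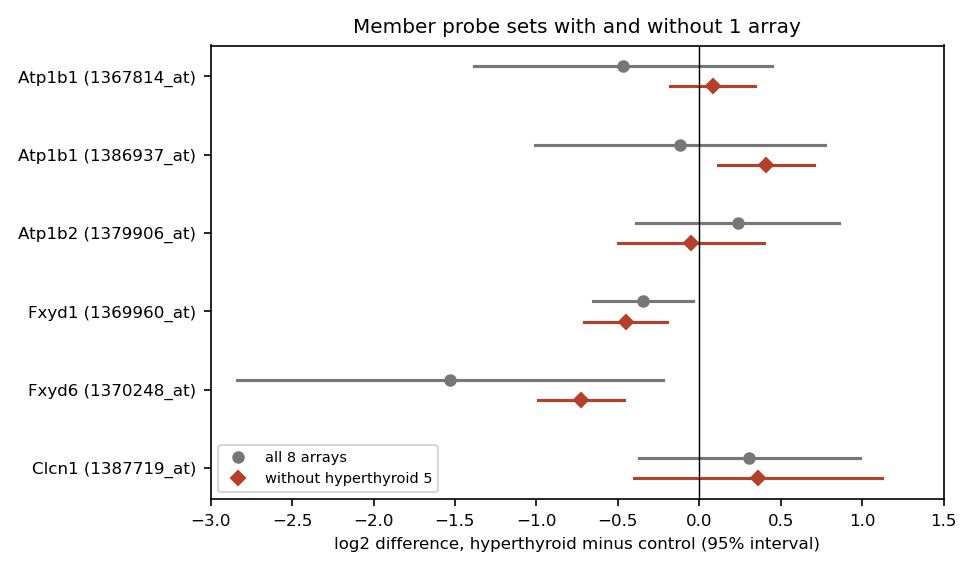
Log2 difference between hyperthyroid and control arrays for the 6 member probe sets that passed the filter, with 95% intervals from limma, on all 8 arrays (grey circles) and without hyperthyroid 5 (red diamonds). Leaving out that array moves both Atp1b1 probe sets from below 0 to above it, and narrows the interval of Fxyd6 from between -2.83 and -0.22 to between -0.99 and -0.46.

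Scn4a encodes the pore of the sodium channel that carries the action potential of skeletal muscle. Its only probe set, 1387362_at, read 1.96, 72.4, 1.51 and 24.5 on hyperthyroid 1, 2, 3 and 5. Controls 7, 8, 9 and 11 gave 28.0, 6.63, 5.81 and 1.98. A single array, hyperthyroid 2, was above the filter level, so this probe set gave no usable level for either group. With no filter its log2 difference was 0.33 ± 1.30 on all 8 arrays (limma, adjusted p = 0.953).

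Clcn1 encodes the chloride channel that carries most of the resting conductance of the fibre. It read 98.1, 75.2, 59.7 and 65.6 on the hyperthyroid arrays and 55.8, 85.8, 45.2 and 57.2 on the controls. The groups overlapped, with means of 74.6 ± 16.9 and 61.0 ± 17.4 (SD, n = 4 each), and hyperthyroid 5 was inside both ranges. The log2 difference was 0.31 ± 0.31 on all 8 arrays (limma, adjusted p = 0.712; 95% interval from -0.37 to 0.98) and 0.36 ± 0.35 without hyperthyroid 5 (limma, adjusted p = 0.652). The Gapdh covariate brought these to 0.15 and 0.0006 (limma, adjusted p = 0.903 and 1.000).

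The members did not move as a block. Fxyd1 and Fxyd6 were both lower on hyperthyroid 1, 2 and 3, with a Pearson correlation of their log2 signals of 0.85 over 7 arrays, but of -0.00397 over 8, since hyperthyroid 5 held a control level of Fxyd1 and the lowest Fxyd6. Fxyd6 and the brighter Atp1b1 probe set correlated at 0.81 over 8 arrays and at -0.89 over 7. Atp1b2 and Fxyd6 lay at -0.80 over 8 arrays and at -0.04 over 7. The array labelled hyperthyroid 5 thus set the pattern among the subunits, high in Atp1b2 and low in Atp1b1 and Fxyd6. These values describe a few arrays that share their groups and carry no test.

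Other pump genes showed no call. Of 8 further alpha, beta and FXYD genes measured, 6 passed the filter and 0 passed the adjusted threshold in either fit, with 2 higher and 4 lower in both. Their median log2 difference was -0.45 on all 8 arrays and -0.38 without hyperthyroid 5, beside medians of 0.01 and 0.02 over all 10446 genes tested. This median rests on 6 genes, most of them dim. The brightest, Atp1b3 (615 to 977), was higher at 0.17 ± 0.16 on all 8 arrays, and the others reached at most 188 on any array. Atp1b4, a muscle protein related to the beta subunits that sits in the inner nuclear membrane, read 52.5, 70.0, 68.0 and 33.8 on the hyperthyroid arrays. The controls gave 102, 95.2, 70.6 and 137, with no overlap, as for 3.23% of all probe sets tested in this direction. Hyperthyroid 2, however, lay just under the lowest control. The log2 difference of Atp1b4 was -0.87 ± 0.33 on all 8 arrays (limma, adjusted p = 0.354) and -0.64 ± 0.31 without hyperthyroid 5 (limma, adjusted p = 0.345). Fxyd7, a brain FXYD protein, stood at -0.67 ± 0.40 on all 8 arrays (limma, adjusted p = 0.540) and at -0.33 ± 0.34 without hyperthyroid 5 (limma, adjusted p = 0.671), and its signal of 92.8 on hyperthyroid 1 was above every control (61.0 to 87.7).

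Channel and exchanger genes of the fibre surface were read from 4 more lists. Together with the pump genes, 56 probe sets of 40 genes were tested. In limma, 0 passed the adjusted threshold in either fit, 1 was higher and 2 were lower at an unadjusted p under 0.05 on all 8 arrays (5.36%, beside 11.5% of all probe sets), and 1 was higher and 3 were lower without hyperthyroid 5 (7.14%, beside 15.2%).

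Of the sodium channel subunits 6 genes were tested. On all 8 arrays 2 were higher and 4 lower, with a median log2 difference of -0.28, and without hyperthyroid 5 it was 3 and 3, with a median of 0.036. Those with the smallest p on all 8 arrays were the accessory subunits Scn2b at -1.17 ± 0.71 (limma, adjusted p = 0.546) and Scn3b at -0.41 ± 0.26 (limma, adjusted p = 0.559). Without hyperthyroid 5 they stood at -1.33 ± 0.77 and -0.24 ± 0.25 (limma, adjusted p = 0.437 and 0.680).

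Of the chloride channels and transporters 9 genes were tested. On all 8 arrays 5 were higher and 4 lower, with a median of 0.11, and leaving out hyperthyroid 5 turned this to 4 and 5, with a median of -0.024. On all 8 arrays the calcium-activated channel Ano1 stood at 0.49 ± 0.30 and the endosomal exchanger Clcn3 at -0.34 ± 0.22 (limma, adjusted p = 0.540 and 0.559). Without hyperthyroid 5 they were at 0.41 ± 0.33 and -0.12 ± 0.16 (limma, adjusted p = 0.586 and 0.736).

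Of the potassium channel genes 12 were tested, with 6 higher, 6 lower and a median of 0.08 on all 8 arrays, and 8 higher, 4 lower and a median of 0.23 without hyperthyroid 5. Kcna5, a voltage-gated channel, read 145, 189, 157 and 66.1 on hyperthyroid 1, 2, 3 and 5. Controls 7, 8, 9 and 11 gave 74.0, 65.5, 74.5 and 82.8. The first 3 were above every control and hyperthyroid 5 was inside the control range. The share of all probe sets separated in this direction was not counted. The log2 difference was 0.81 ± 0.32 on all 8 arrays (limma, adjusted p = 0.370) and 1.14 ± 0.24 without hyperthyroid 5 (limma, adjusted p = 0.0788). Kcnj11, the pore of the ATP-sensitive potassium channel, stood at 0.48 ± 0.23 on all 8 arrays (limma, adjusted p = 0.449).

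Of the exchangers and membrane scaffold genes 7 were tested, 1 higher and 6 lower in both fits, with a median of -0.27 on all 8 arrays and of -0.14 without hyperthyroid 5. Slc8a1, the sodium-calcium exchanger driven by the gradient the pump makes, read 153, 291, 235 and 142 on the hyperthyroid arrays and 294, 293, 355 and 338 on the controls. The groups did not overlap, as for 3.23% of all probe sets tested in this direction, though hyperthyroid 2 lay just under the lowest control. The log2 difference was -0.70 ± 0.24 on all 8 arrays (limma, adjusted p = 0.331) and -0.54 ± 0.22 without hyperthyroid 5 (limma, adjusted p = 0.264). Slc8a3, a second exchanger of this family, stood at -0.84 ± 0.51 on all 8 arrays (limma, adjusted p = 0.540) and at -1.18 ± 0.52 without hyperthyroid 5 (limma, adjusted p = 0.306).

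**Figure D4:**
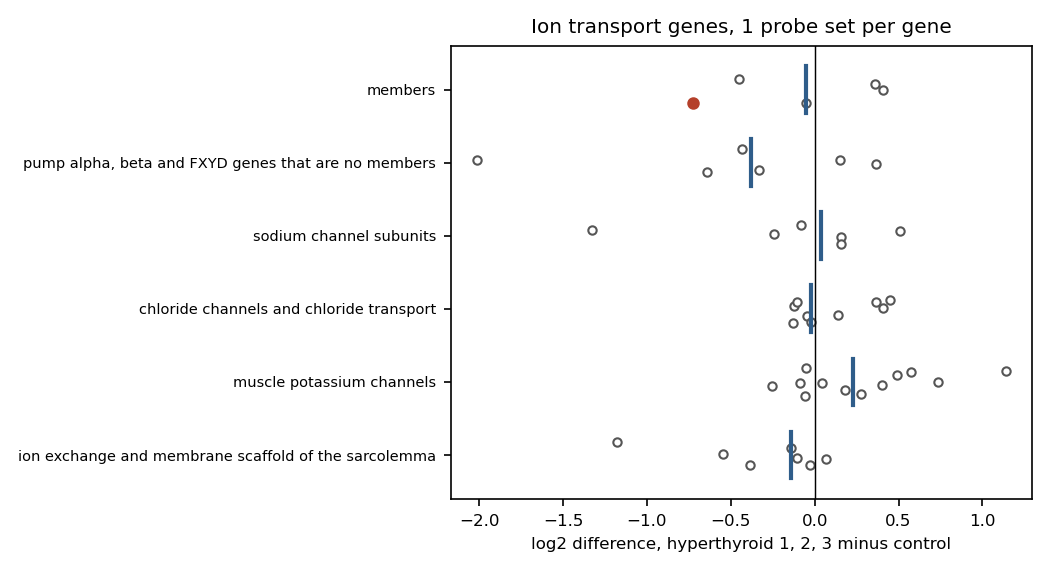
Log2 difference between hyperthyroid 1, 2 and 3 and the 4 controls for the members and for 5 lists of ion transport genes, with 1 point per gene (brightest probe set), the list median as a blue bar and the gene with an adjusted p under 0.05 in limma filled. Fxyd6 at -0.73 is the only filled point, and Kcna5 at 1.14 is the highest among the genes of the 5 lists that passed the filter.

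Genes whose log2 signal ran most like that of a member were found by Pearson correlation over the 8 arrays among the genes tested, and are given as a description. For Fxyd6 these were Mybphl, a myosin binding protein, at 0.99 (0.87 over 7 arrays without hyperthyroid 5), and Ldhb, lactate dehydrogenase B, at 0.99 (0.81). Mybphl read 854, 1400.5, 1425 and 43.4 on hyperthyroid 1, 2, 3 and 5, and the controls gave 1602 to 1915. The groups did not overlap, as for 3.23% of all probe sets tested in this direction. Since Mybphl was picked for its likeness to Fxyd6 on these same arrays, this is no separate result. For Fxyd1 they were Gemin7 at 0.96 (0.97 over 7) and Fam234a at 0.96 (0.96 over 7).

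For Atp1b1 they were Prkar1a, the regulatory subunit of protein kinase A, at 0.98 (0.87 over 7) and Sorl1 at 0.98 (0.91). Prkar1a read 1410.3 on hyperthyroid 5 and 4013 to 5583 elsewhere. For Atp1b2 they were the ribosomal protein gene Rpl18 at 0.98 (0.93) and Fcmr at 0.97 (0.92), both highest on hyperthyroid 5. For Clcn1, which varied within the groups, they were Cdkn2c, a cell cycle inhibitor, at 0.96 and Rbm12 at 0.96.

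Promoters were read for 5 of the 6 members from RefSeq sequences of build GRCr8, which cover 250 bases before and 50 after the transcript start. Atp1b1 was not matched. The thyroid hormone receptor half-site AGGTCA (either strand) was in 0 of the 5 windows and in 16.2% of all 33469 promoters. The E-box letters CAGCTG, a binding motif of myogenic factors that reads the same on both strands, were in 3 of 5 and in 15.1% of all, and a MEF2 motif (CTA and TAG with any 4 bases between) was in 1 of 5 and in 3.84% of all. A link between these matches and the signals was not tested. The windows with a match are shown 5′ to 3′ on the gene's strand with the motif in capitals:
Fxyd6 (chr8:54575727-54575756, + strand): aatcaaaagcaaCAGCTGctggcaaatccg
Fxyd1 (chr1:95418531-95418560, - strand): ctcccagggtgcaCAGCTGgaaatttgggg
Scn4a (chr10:91796375-91796404, - strand): catcagcggcagCAGCTGtccttgccggcc
Clcn1 (chr4:72139118-72139147, + strand): ggagagacagCTATAAATAGctagaggtgg
The match began 86 bases before the start of Fxyd6, 68 before that of Scn4a and 50 before that of Clcn1, and it lay 34 bases after the start of Fxyd1. A match describes these letters and does not show binding.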

How the data were processed

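The members and gene lists were chosen with earlier results of these data known. The authors deposited 1 linear intensity for each probe set on each array; the submitters' processing notes name GCOS, without a version. The authors' values had been scaled: the mean after trimming 2% at each end was 150.1 on each array. Detection calls and filters are not given in the sources used here.

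Values were set to at least 1 (1665 of 248792 were lower) and taken to log2. The 57 control probe sets were left out, and the upper 60% of the other 31042 by mean log2 signal were tested with limma 3.58.1 in R 4.3.3 (lmFit, eBayes with trend, two-sided, Benjamini-Hochberg over all 18625). The script was tested on simulated data. The number of arrays limits the precision, and a fold of a dim probe set is imprecise. Gene symbols came from the platform annotation, and all 8 member probe sets matched a rat RefSeq gene ID. Named genes were the members, from each list the calls or the 2 smallest p-values over all 8 arrays, and the 2 most correlated genes per member that passed the filter. Alternatives were other scalings, filters, an added 32, eBayes options, array weights, 1 probe set per gene, the Gapdh ratio as covariate, and leaving out each array.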

Additional observations from a re-analysis of the deposited data

Results flagged for a closer look

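In groups of 4 arrays, the gap of the highest or lowest array to its neighbour was set against the range of the group on the log2 scale, for members and named ion transport genes that passed the filter. Of 32 groups, 2 stood out, and chance gives about 1 in 20. Fxyd6 on hyperthyroid 5 had a signal of 85.6, with a gap of 0.908 of the range of the hyperthyroid arrays. Scn2b on hyperthyroid 2 had a signal of 5.08, with a gap of 0.839, against 40.6 to 60.5 on the other hyperthyroid arrays.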

How the results depend on the processing

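No paired analysis was possible because the groups share no replicate number. On all 8 arrays the count of probe sets past the threshold was 0 with the values as deposited, 6 with array weights and 8 with the Gapdh covariate, and from 0 to 29 when each array was left out. Without hyperthyroid 5 it was 29 (10 higher, 19 lower), 315 with median centring (13 higher, 302 lower), 36 with quantile normalization (21 higher, 15 lower), 71 with no filter, 85 with the upper 40%, 78 with 32 added, 0 without a trend (2404 at an unadjusted p under 0.05), 10 with 1 probe set per gene and 1 with the Gapdh covariate, and from 0 to 144 when a further array was left out (0 without hyperthyroid 1, control 8 or control 11, 144 without hyperthyroid 3). Median centring moved the median log2 difference of all probe sets from 0.04 to -0.14. Of 206 member values under alternatives, 184 kept direction and side of the threshold, 10 lost the call, 2 gained it and 10 changed sign. Those that changed sign belonged to Atp1b1 and Atp1b2. On all 8 arrays, array weights gave 0.12 for Atp1b1 1386937_at, and the Gapdh covariate moved it from -0.12 to -0.89, 1367814_at from -0.47 to -1.24, Atp1b2 from 0.23 to 0.62 and Fxyd6 from -1.53 to -2.53. Leaving out each array gave -0.72 to 0.081 for Atp1b1 1367814_at, -0.38 to 0.41 for 1386937_at and -0.052 to 0.43 for Atp1b2 1379906_at, and the sign changed only without hyperthyroid 5. Without hyperthyroid 5, Atp1b1 1367814_at was at -0.098 with median centring and -0.21 with the Gapdh covariate, and at -0.027 (without hyperthyroid 1) to 0.19 when a further array was left out. 1386937_at went from 0.41 to 0.23 with median centring and to 0.025 with the Gapdh covariate. Atp1b2 was at 0.036 with the Gapdh covariate, and at -0.23 to 0.092 when a further array was left out (above 0 without hyperthyroid 2 or control 9). The cause was not tested.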

Other observations

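Fxyd4 and Fxyd2, FXYD proteins best known from kidney, were looked at after their values had been seen. Fxyd4 read 85.4, 55.6, 70.0 and 36.2 on hyperthyroid 1, 2, 3 and 5. Controls 7, 8, 9 and 11 gave 5.77, 17.1, 6.71 and 4.26. The groups did not overlap, but the share of all probe sets separated in this direction was not counted. Every control lay below the filter level of about 28.2, so the size of the difference is imprecise. It did not pass the filter, and with no filter its log2 difference was 3.02 ± 0.74 on all 8 arrays (limma, adjusted p = 0.248). Fxyd2 read 27.1, 3.23 and 22.6 on hyperthyroid 1, 2 and 3, below every control (36.5 to 61.6), and 115 on hyperthyroid 5, above them. Without hyperthyroid 5, 6.51% of all probe sets tested were separated in this direction. The log2 difference of Fxyd2 was -1.21 ± 0.90 on all 8 arrays and -2.01 ± 0.84 without hyperthyroid 5 (limma, adjusted p = 0.612 and 0.284).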
